A study of Sus scrofa with 15 samples.

Results

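The 6 libraries that carry a knockdown vector, 3 labelled Lv133KD and 3 labelled Lv143KD, were taken as one group and set against the 3 libraries of their control vector Lv3NC. These are 9 of the 15 libraries of the series, chosen by their labels alone, with the replicate number kept as a block. All were made from total RNA of IPEC-J2, an epithelial cell line from pig small intestine, and all 9 carry a lentiviral vector, the controls included. Per the study's design text, Lv133KD lowers miR-133, and the same miRNA is given as the target of the vector labelled Lv143KD, so the target of that vector is unsettled. The remaining 6 libraries, used here only for levels, carry Lv20NC, the control vector for overexpression, or OV143, which overexpresses miR-143. The labels do not say what Lv3NC encodes, how long the cells carried a vector, or whether each library stands for its own culture. The p-values therefore cover only the spread among these libraries, part of which may be technical.

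A microRNA is a short RNA that guides an argonaute protein to messenger RNAs with a matching site, and such messengers are usually repressed or broken down. A knockdown vector is meant to take the miRNA away from its targets, so that targets may rise. miR-133 is best known from muscle and miR-143 from smooth muscle and from the stroma of the gut. Neither miRNA has an entry in the knockdown table, so the action of the vectors on their miRNAs was not checked.

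Values are FPKM, fragments scaled to transcript length and library size, which allow levels of different genes to be compared per length. Of 19000 genes listed, 11645 reached 1 FPKM in at least 3 of the 9 libraries and were tested. FPKM keeps no read total, so the depth is unknown; the FPKM sums of the 9 libraries ran from 486086 to 520631, and 11250 to 11557 genes reached 1 FPKM in each. The 6 epithelial markers were present in every library, with summed levels of 1380 to 2050 FPKM in the knockdown libraries and 1430 to 2070 FPKM in Lv3NC. The 6 leukocyte markers summed to 3.53 to 5.69 FPKM against 4.08 to 6.52 FPKM, and PTPRC, a marker of all leukocytes, is listed at 0 in all 9. The muscle markers summed to 1.32 to 1.76 FPKM against 1.04 to 2.09 FPKM, and the muscle regulator MYOD1 is listed at 0 in all 9. In bulk RNA, fewer cells with a transcript and less of it per cell cannot be told apart.

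The comparison asked which genes stood at another level with either knockdown vector than with the control vector. In the pooled knockdown libraries 60 genes rose and 6 fell (limma with the replicate block, Benjamini-Hochberg adjusted p under 0.05), which is 0.567% of the genes tested, 0.515% for rises and 0.0515% for falls. The genes that rose the most among those with a symbol were the centrosomal gene FOPNL, the WNT inhibitor WIF1, the ketone-body enzyme gene AACS and the lysosomal enzyme gene GLA, each by 2.01-fold to 2.31-fold. The metallothionein gene MT-2B fell the most, by 1.52-fold. Most rises were small: 39 of the 60 were under 1.5-fold, 16 were at 1.5-fold to under 2-fold, and 5 reached 2-fold, with a median of 1.43-fold and a smallest of 1.24-fold. The 6 falls ran from 1.28-fold to 1.52-fold. All folds are on the log2(FPKM + 1) scale, which understates the change of low genes.

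**Figure D1:**
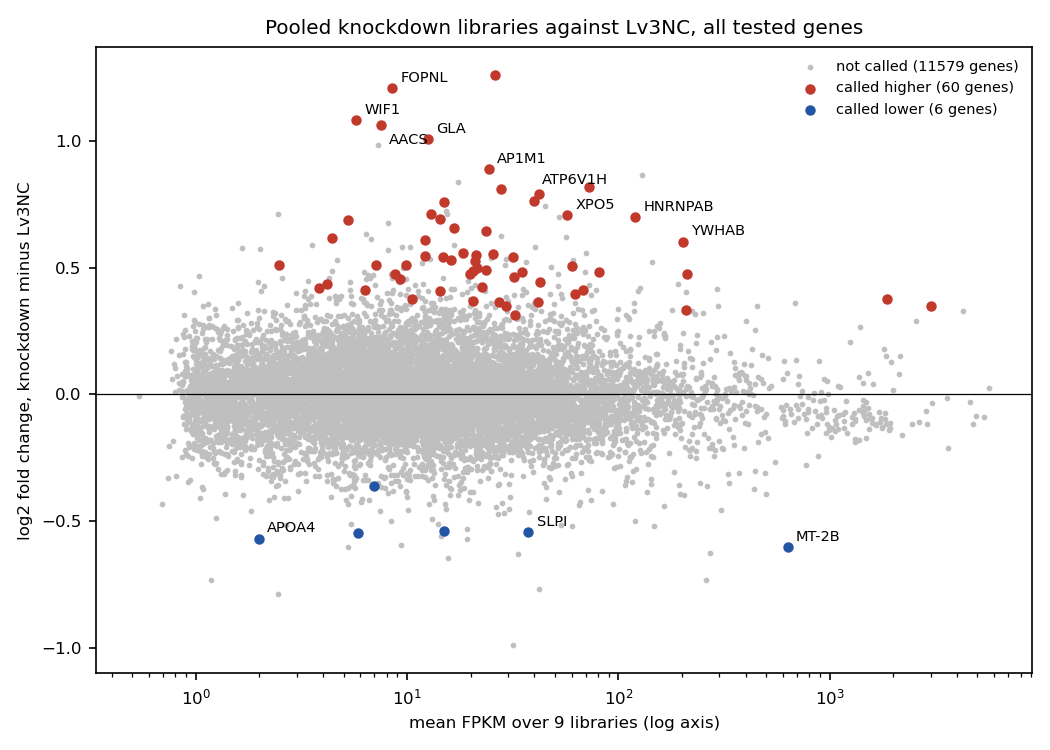
Log2 fold change of the 6 knockdown libraries against Lv3NC (vertical axis) by mean FPKM over the 9 libraries (horizontal, log axis) for each of the 11645 genes tested. The 60 genes called higher are in red, the 6 called lower in blue; the called genes run from APOA4, near the lower limit of the test, up to predicted genes at over 1000 FPKM, and the rises outnumber the falls.

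The tested genes as a whole did not shift to one side. Over all tested genes the median log2 fold change was -0.00208, and 49.4% of genes had a higher estimate in the knockdown libraries. The called genes had a median level of 21.1 FPKM, against 11.4 FPKM over all tested genes. At an unadjusted p under 0.05 there were 1484 genes, 690 higher and 794 lower, so the excess of rises is seen among the called genes and not in that wider set. The called genes with a known position lay on 19 chromosomes, at most 7 of them on one. The predicted genes among the calls had no position.

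In 52 of the 60 genes that rose, every knockdown library lay above every Lv3NC library, an arrangement found in 1.56% of all tested genes. In 2 of the 6 that fell, every knockdown library lay below every control, as in 0.936% of tested genes. Within each replicate number, the control was below both knockdown libraries for all 60 genes that rose, as for 7.47% of tested genes, and above both for all 6 that fell, as for 9.09%. These arrangements come from the same values as the calls and are a description of them. An exact permutation test over the 27 ways to name 1 control per replicate number, two-sided, can reach no p below 0.037. It gave that p for each called gene. The genes were called from the same values, so it adds no separate support.

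The number of calls rested strongly on the block and on single libraries. Without the block 10 genes rose and 0 fell by limma, where 484 genes had an unadjusted p under 0.05, 321 higher and 163 lower. Leaving out 1 library gave 23, 22 or 210 calls without Lv133KD replicate 1, 2 or 3, 20, 33 or 116 without Lv143KD replicate 1, 2 or 3, and 9, 31 or 21 without Lv3NC replicate 1, 2 or 3. Without the 3 libraries numbered 1 there was 1 call, a fall that was not among the 66, and without those numbered 2 there were 5, all rises. Without those numbered 3 there were 337, which held all 66, with 168 rises and 169 falls, so the excess of rises was not seen in that fit. FOPNL, WIF1, ALG5, ATP6V1H and FAF1 passed in each of these fits apart from the one without the libraries numbered 1, and no named gene turned its direction in any.

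The largest rise among genes with a symbol was that of FOPNL (NCBI Gene 100621608; Sscrofa11.1 chromosome 3, 6977195 to 6996024), which encodes a centrosomal protein needed to build cilia. It was at 11.37, 9.42 and 11.34 FPKM in Lv133KD replicates 1 to 3, at 11.65, 10.89 and 9.51 FPKM in Lv143KD, and at 3.42, 4.55 and 4.22 FPKM in Lv3NC. The lowest knockdown library was above the highest control by more than the whole range of either group. The log2 fold change was 1.21 (SE 0.10, adjusted p = 0.00118), and within the replicate numbers it was 1.5, 1.00 and 1.13. FOPNL was the 1 called gene among 28 tested genes of the centrosome and of cilium formation. Of these, 14 were higher and 14 lower, with a median log2 fold change of 0.00731. Over all tested genes 0.515% rose, and this list, like the others below, was chosen with earlier results known. The next by p in that list, the cilium gene BBS4, was at 15.4 ± 3.24 FPKM in the knockdown libraries and 17.8 ± 5.03 FPKM in Lv3NC (SD, n = 6 and 3; limma adjusted p = 0.317).

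WIF1 (100512657; chromosome 5, 29450442 to 29543913) encodes a secreted protein that binds WNT ligands and keeps them from their receptors. Its level was 7.08, 6.37 and 8.34 FPKM in Lv133KD, 6.58, 6.86 and 7.91 FPKM in Lv143KD, and 2.29, 3.07 and 3.26 FPKM in Lv3NC. The groups did not overlap, and the 3 within-number log2 changes of 1.25, 0.90 and 1.10 lay close together. WIF1 rose by 1.08 on the log2 scale (SE 0.08, adjusted p = 0.00078). Of 24 tested WNT antagonists, receptors and targets, 16 were higher and 8 lower, with a median of 0.0523, and WIF1 alone passed. The receptor FZD3 was at 1.68 ± 0.279 against 1.34 ± 0.304 FPKM (adjusted p = 0.313), and the target gene AXIN2 at 1.14 ± 0.0834 against 0.967 ± 0.315 FPKM (adjusted p = 0.509).

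Metabolic enzymes followed. AACS (100156545; chromosome 14, 28109845 to 28169261), which activates the ketone body acetoacetate in the cytosol for lipid synthesis, was at 9.74, 9.57 and 9.70 FPKM in Lv133KD and at 10.30, 8.73 and 7.74 FPKM in Lv143KD. In Lv3NC it was at 3.15, 4.88 and 3.85 FPKM, below every knockdown library. Its log2 fold change was 1.06 (SE 0.11, adjusted p = 0.00493). It was the 1 of 20 tested genes of acyl-CoA and fatty acid synthesis that passed, 11 of them higher and 9 lower. HSD17B7 (100155418; chromosome 4, 87720747 to 87743037), an enzyme of cholesterol synthesis, was at 19.97 to 25.89 FPKM in the knockdown libraries, with a median of 23.1, and at 14.52, 17.81 and 15.47 FPKM in Lv3NC. It rose by 0.49 on the log2 scale (SE 0.08, adjusted p = 0.0427) without overlap. HSD17B7 did not pass in 12 of 24 other fits, among them the one without the block (limma adjusted p = 0.189). Of 22 tested cholesterol genes 18 were higher and 4 lower, with a median of 0.167. That median differed between the vectors' own estimates, at 0.297 for Lv133KD and 0.00952 for Lv143KD, each against the same Lv3NC libraries.

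Several called genes serve acidic compartments and the traffic between them. ATP6V1H (397472; chromosome 4, 77211493 to 77269757) encodes the H subunit of the vacuolar proton pump, which sits in the cytosolic sector that hydrolyses ATP. It was at 46.26, 46.96 and 45.36 FPKM in Lv133KD, at 46.64, 46.32 and 46.33 FPKM in Lv143KD and at 25.50, 28.91 and 26.31 FPKM in Lv3NC. The 6 knockdown libraries spanned less than 2 FPKM, and the nearest control stood far below them. The log2 fold change was 0.76 (SE 0.06, adjusted p = 0.00078). The other pump genes did not follow: of 19 tested subunits and assembly factors 9 were higher and 10 lower, with a median of -0.00765. The membrane-sector subunit ATP6V0C was at 213 ± 6.27 against 181 ± 21.4 FPKM (adjusted p = 0.25), while another, ATP6V0B, was at 93.1 ± 5.36 against 111 ± 12.1 FPKM (adjusted p = 0.237).

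GLA (100415928; chromosome X, 83024582 to 83032273), the lysosomal enzyme that removes terminal galactose from glycolipids, was at 15.77, 17.49 and 15.29 FPKM in Lv133KD and at 14.44, 17.21 and 10.75 FPKM in Lv143KD. In Lv3NC it was at 5.91, 9.87 and 5.67 FPKM. The groups did not overlap, but Lv143KD replicate 3 lay just above Lv3NC replicate 2, and in all 3 groups replicate 2 was the highest. GLA rose by 1.01 on the log2 scale (SE 0.11, adjusted p = 0.00493). Of 34 tested lysosomal hydrolases and membrane proteins 24 were lower and 10 higher, with a median of -0.133. At an unadjusted p under 0.05, 12 were lower and 4 higher, against 794 lower and 690 higher among all 11645 tested genes. The protease TPP1 was at 55.4 ± 3.50 against 68.9 ± 4.57 FPKM (adjusted p = 0.134), and CTSA, which protects other lysosomal enzymes, at 69.2 ± 4.56 against 83.2 ± 4.25 FPKM (adjusted p = 0.164).

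Of 25 tested clathrin adaptor and coat genes, 3 rose and none fell, where 0.515% of all tested genes rose; the list was chosen with results known and was not tested as a set. AP1M1 (100511918; chromosome 2, 61356369 to 61386133) encodes the medium subunit of AP-1, which sorts cargo between the trans-Golgi network and endosomes. It was at 30.44, 31.02 and 30.60 FPKM in Lv133KD, at 31.14, 31.40 and 18.78 FPKM in Lv143KD and at 13.44, 19.52 and 12.63 FPKM in Lv3NC. Lv143KD replicate 3 lay below Lv3NC replicate 2, so the groups overlapped. AP1M1 rose by 0.89 on the log2 scale (SE 0.14, adjusted p = 0.0252). AP1S2, a small subunit of AP-1, rose from 41.18, 44.07 and 56.70 FPKM in Lv3NC to between 57.83 and 73.82 FPKM (log2 fold change 0.51, adjusted p = 0.0188). AP2B1, a large subunit of the plasma membrane adaptor AP-2, rose from 49.11 to 63.16 FPKM to between 63.86 and 84.48 FPKM (0.41, adjusted p = 0.0183). Without the block none of the 3 passed (limma adjusted p = 0.213 for AP1M1, 0.318 for AP1S2 and 0.412 for AP2B1). Each of them did not pass in 11 of 24 other fits. In the whole list 19 genes were higher and 6 lower, with a median of 0.0541. The AP-1 small subunit AP1S1 was at 115 ± 3.52 against 122 ± 6.93 FPKM (adjusted p = 0.554).

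In N-glycan assembly, ALG5 (100154411; chromosome 11, 12777549 to 12815969), which makes the glucose donor for the lipid-linked sugar chain, was at 49.36, 54.64 and 48.38 FPKM in Lv133KD and at 48.75, 51.64 and 42.51 FPKM in Lv143KD. Lv3NC had 25.77, 32.78 and 25.80 FPKM, with no overlap. It rose by 0.79 on the log2 scale (SE 0.07, adjusted p = 0.00118). The 32 tested genes of the list were 13 higher and 19 lower, with a median of -0.0104. The mannosyltransferase ALG11 was at 13.1 ± 1.10 against 10.2 ± 1.03 FPKM (adjusted p = 0.151).

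The machinery that makes and carries miRNAs held 2 rises among 18 tested genes, where 0.515% of all tested genes rose; this list too was chosen with results known and was not tested as a set. XPO5 (100155084; chromosome 7, 38530704 to 38569558) exports precursor miRNAs from the nucleus. It was at 64.55, 73.75 and 66.01 FPKM in Lv133KD, at 62.70, 70.42 and 56.58 FPKM in Lv143KD and at 35.25, 48.64 and 36.31 FPKM in Lv3NC. No libraries of the groups overlapped, and replicate 2 was again the highest of each group. XPO5 rose by 0.71 on the log2 scale (SE 0.07, adjusted p = 0.00479). AGO4 (100499507; chromosome 6, 91967499 to 92013030), an argonaute protein, had a low level of 4.06 to 4.49 FPKM in the knockdown libraries and 3.05, 2.76 and 2.97 FPKM in Lv3NC. It rose by 0.42 on the log2 scale (SE 0.06, adjusted p = 0.0205). Without the block neither gene passed (limma adjusted p = 0.0781 for XPO5 and 0.097 for AGO4). AGO4 did not pass in 13 of 23 other fits and XPO5 in 4 of 24. The other argonaute genes AGO2 (14 ± 1.72 against 12.3 ± 2.65 FPKM, adjusted p = 0.41) and AGO1 (4.65 ± 0.331 against 5.01 ± 0.578 FPKM, adjusted p = 0.61) did not pass. DICER1, which cuts precursor miRNAs, was at 11 ± 2.58 against 9.32 ± 3.35 FPKM (adjusted p = 0.46), and DROSHA, which cuts the primary transcripts, at 9.01 ± 1.98 against 7.16 ± 2.86 FPKM (adjusted p = 0.364). Of the 18 genes 13 were higher and 5 lower, with a median of 0.0566.

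**Figure D2:**
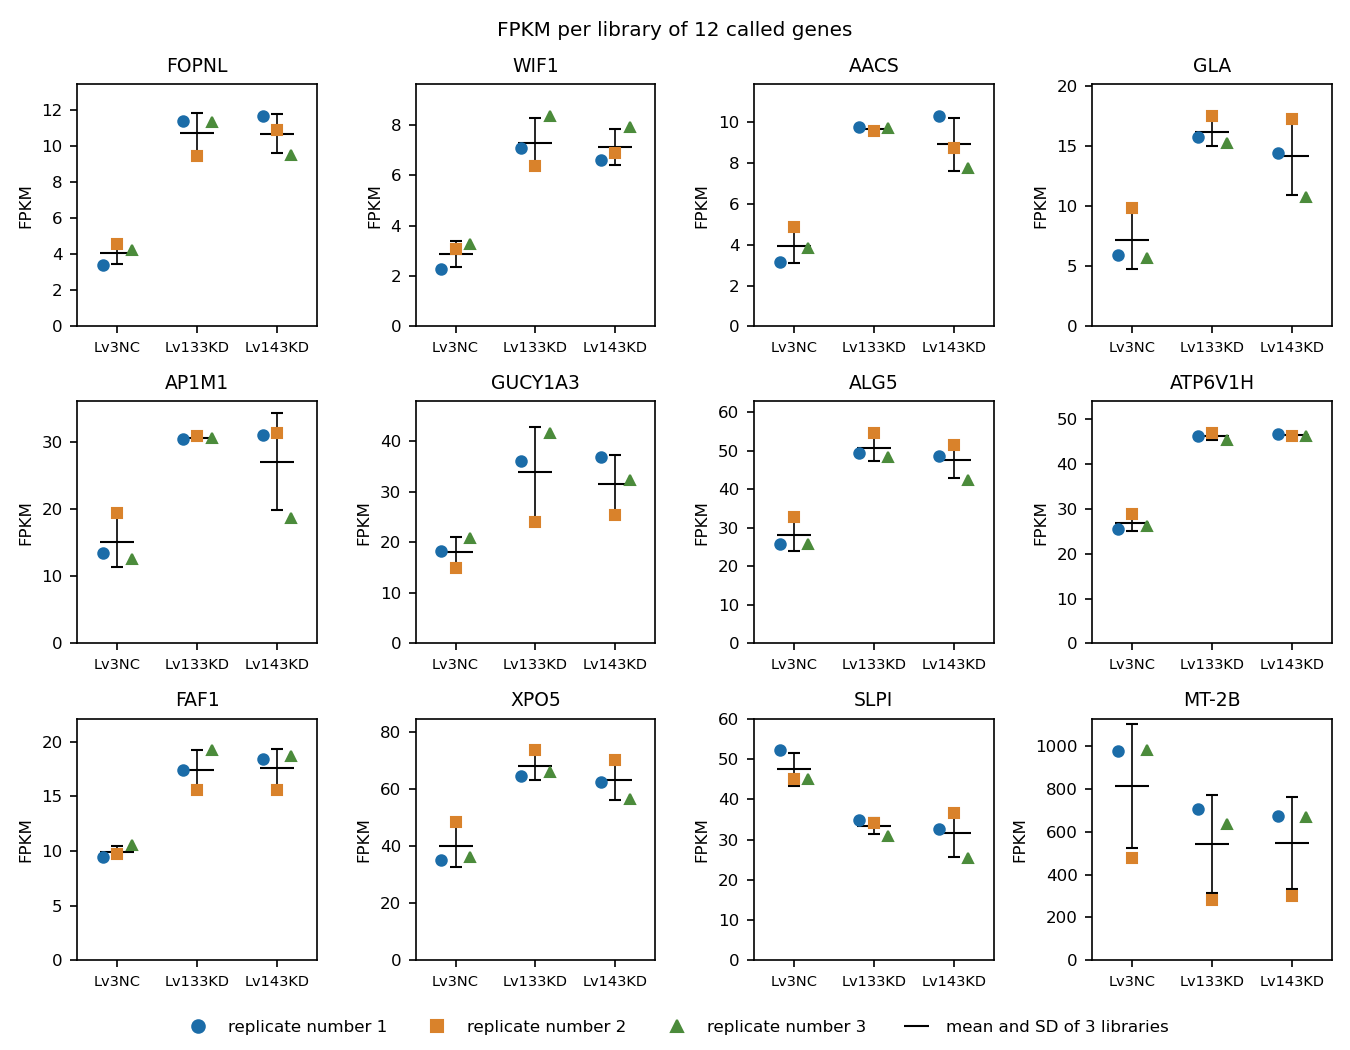
FPKM of 12 called genes in each of the 9 libraries, by group, with the mean and SD of each group of 3 as lines and the replicate number as the symbol. In all 12 panels both knockdown libraries of a replicate number sit on the same side of the control with that number; in AP1M1 and MT-2B the groups as a whole overlap, and in AP1M1 Lv143KD replicate 3 at 18.78 FPKM lies below Lv3NC replicate 2 at 19.52 FPKM.

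GUCY1A3 (553100; chromosome 8, 44448758 to 44520737), the alpha subunit of the cytosolic guanylate cyclase that senses nitric oxide, was at 36.09, 24.03 and 41.67 FPKM in Lv133KD, at 36.88, 25.43 and 32.44 FPKM in Lv143KD and at 18.33, 14.92 and 20.91 FPKM in Lv3NC. Replicate 2 was the lowest of each group, and no libraries of the groups overlapped. The log2 fold change was 0.81 (SE 0.09, adjusted p = 0.00493), and within the numbers 0.96, 0.69 and 0.79. The other 9 tested genes of nitric oxide and cGMP signalling did not pass. The phosphodiesterase PDE2A was at 12.9 ± 1.64 against 10.5 ± 2.99 FPKM (adjusted p = 0.211).

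Among 24 tested genes of death receptor signalling and apoptosis, 14 were higher and 10 lower, with a median log2 fold change of 0.0347. In this list 1 gene was called as a rise, where 0.515% of all tested genes rose. FAF1 (100518974; chromosome 6, 161173915 to 161603731), which binds the death receptor FAS, was at 17.39, 15.56 and 19.24 FPKM in Lv133KD, at 18.41, 15.60 and 18.73 FPKM in Lv143KD and at 9.47, 9.69 and 10.53 FPKM in Lv3NC. Every knockdown library was above every control. The log2 fold change was 0.76 (SE 0.06, adjusted p = 0.00118). No other member was called. BAX, which opens the outer mitochondrial membrane, was at 48.9 ± 4.09 against 56.7 ± 3.99 FPKM (adjusted p = 0.261).

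A further 5 genes named by the rule rose by 1.56-fold to 1.64-fold. BLVRA, which turns biliverdin into bilirubin, was at 13.50 to 16.85 FPKM against 7.23, 10.48 and 8.75 FPKM (adjusted p = 0.0305). HNRNPAB, an RNA-binding protein of the nucleus, was at 131.70, 170.99 and 127.62 FPKM in Lv133KD, at 135.53, 166.75 and 88.72 FPKM in Lv143KD and at 82.41, 119.55 and 55.92 FPKM in Lv3NC. In each group its replicate 2 was the highest and its replicate 3 the lowest, and the groups overlapped, although within each number the control was the lowest (adjusted p = 0.0293). SEPT8, a filament-forming septin, was at 13.92 to 18.25 FPKM against 9.16, 11.39 and 8.92 FPKM (adjusted p = 0.0143). LRRC1, a scaffold protein of epithelial polarity, was at 4.70 to 6.91 FPKM against 2.89, 4.25 and 3.25 FPKM (adjusted p = 0.0293). NAA15, the ribosome-anchoring subunit of the main N-terminal acetyltransferase, was at 24.43 to 29.71 FPKM against 17.70, 18.25 and 14.81 FPKM (adjusted p = 0.00493). SEPT8, LRRC1, BLVRA and NAA15 had groups that did not overlap. Without the block the limma adjusted p was 0.954 for HNRNPAB, 0.119 for LRRC1, 0.0781 for BLVRA and 0.0683 for SEPT8. NAA15 passed in that fit (0.0279). HNRNPAB and LRRC1 each did not pass in 11 of 24 other fits, BLVRA in 10, SEPT8 in 9 and NAA15 in 2. Their lists held no second call: 23 hnRNP proteins had a median log2 fold change of 0.0335, 16 polarity genes 0.057, 21 haem and NRF2 genes 0.0718 and 11 N-terminal acetylation genes 0.0618.

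The gene with the largest rise of all was a predicted gene without a symbol, at 24.15, 35.26 and 24.42 FPKM in Lv133KD, at 26.92, 51.30 and 34.21 FPKM in Lv143KD and at 12.79, 13.84 and 11.31 FPKM in Lv3NC (log2 fold change 1.26, SE 0.15, adjusted p = 0.00706). The 60 genes that rose hold 4 such predicted genes and 3 more with a locus number in place of a name.

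The other called genes with a proper symbol, 34 in all, rose by 1.24-fold to 1.58-fold, with adjusted p between 0.00493 and 0.0478. Those given here were chosen after their values were seen. Membrane traffic genes among them were NECAP1, a partner of clathrin adaptors (22.85 to 24.57 against 15.61, 17.81 and 16.16 FPKM), VPS26B of the retromer (31.26 to 37.71 against 19.74, 24.80 and 27.76 FPKM), and SCAMP2, a membrane protein of recycling vesicles (22.92 to 28.60 against 15.44, 21.18 and 18.67 FPKM). Lipid genes were PIP5K1A, which makes the phosphoinositide that recruits AP-2 (25.95 to 30.96 against 20.09, 20.64 and 16.74 FPKM), and SCARB1, the receptor for high-density lipoprotein (40.73 to 51.65 against 35.77, 34.73 and 31.53 FPKM). In these 5 genes no knockdown library was as low as a control. Receptors were IFNAR1, a subunit of the type I interferon receptor (13.70 to 16.57 against 11.76, 13.07 and 9.92 FPKM), and TGFBR3, a co-receptor for TGF-beta (6.77 to 9.78 against 4.28, 6.33 and 5.37 FPKM). The adaptor YWHAB, a 14-3-3 protein, was the most abundant of the genes that rose by at least 1.5-fold, at 192.51 to 239.29 FPKM against 146.15, 181.04 and 124.54 FPKM. ACTL6A, a subunit of chromatin remodelling complexes, was at 35.72 to 42.78 against 26.41, 29.76 and 25.96 FPKM. PDHA1, the catalytic subunit of pyruvate dehydrogenase, had the smallest rise, 0.31 on the log2 scale (adjusted p = 0.0458).

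Of the 6 genes that fell, 2 were predicted genes. MT-2B (396827; chromosome 6, 18645125 to 18646034), a metallothionein that binds zinc and copper, was at 705.50, 280.03 and 635.91 FPKM in Lv133KD, at 673.42, 301.76 and 667.90 FPKM in Lv143KD and at 977.68, 477.27 and 979.94 FPKM in Lv3NC. The groups overlapped, since replicate 2 was low in all 3, but within each number both knockdown libraries lay below the control. MT-2B fell by 0.60 on the log2 scale (SE 0.06, adjusted p = 0.00479), and within the numbers -0.50, -0.71 and -0.59. Without the block its adjusted p was 0.984. The genome holds near-identical metallothionein copies to which the same reads may be given, so the value is uncertain. No other of the 21 tested genes of metallothioneins and zinc handling passed: 10 of the 21 were higher and 11 lower, with a median of -0.0115, and the zinc transporter SLC39A9 was at 18.1 ± 0.562 against 15 ± 0.410 FPKM (adjusted p = 0.122).

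SLPI (396886; chromosome 17, 47595804 to 47598364), a protease inhibitor that epithelia secrete onto mucosal surfaces, was at 34.80, 34.00 and 31.00 FPKM in Lv133KD, at 32.58, 36.68 and 25.33 FPKM in Lv143KD and at 52.23, 45.13 and 45.05 FPKM in Lv3NC. No libraries of the groups overlapped. It fell by 0.54 on the log2 scale (SE 0.09, adjusted p = 0.0273). APOA4, an apolipoprotein that enterocytes secrete with dietary fat, was near the lower limit of the test, at 2.33, 0.94 and 1.29 FPKM in Lv133KD, 2.25, 0.96 and 1.71 FPKM in Lv143KD and 3.29, 1.98 and 3.08 FPKM in Lv3NC (log2 fold change -0.57, adjusted p = 0.0205). The small heat shock protein HSPB6 was at 5.07 to 7.32 FPKM against 8.36, 9.66 and 7.02 FPKM (log2 fold change -0.36, adjusted p = 0.044). Both overlapped between groups and were lower in both knockdown libraries than in the control within each number. Without the block the adjusted p was 0.984 for each of the pair, and APOA4 did not pass in 12 of 23 other fits and HSPB6 in 15 of 24.

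Some called genes overlap another annotated gene. These include XPO5 with POLR1C and POLH, HNRNPAB with PHYKPL, SEPT8 with CCNI2, AGO4 with CLSPN, ACTL6A with MRPL47 and PDHA1 with MAP3K15. FAF1, BLVRA, NAA15, APOA4, TGFBR3, NECAP1 and PDPR overlap pseudogenes or long noncoding RNAs. The overlaps are of whole gene spans, and exons were not compared. Whether strand was used in counting is not given in the sources used here. Whether the partners share reads is therefore unknown, and these values are uncertain. The value of AP2B1 is uncertain for the same reason.

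Around the threshold the values ran on without a gap. Just inside it were PDPR, a regulator of pyruvate dehydrogenase (adjusted p = 0.0476), the TBP regulator BTAF1 (0.0478) and a predicted gene (0.0486). Just outside were SERPINF1, a secreted serpin, at 2.26 ± 0.264 against 3.32 ± 0.22 FPKM (adjusted p = 0.0502), the m6A reader YTHDF1, at 11.7 ± 1.41 against 7.47 ± 1.13 FPKM, and RBM15B of the m6A writer complex, at 7.73 ± 0.837 against 5.27 ± 0.332 FPKM (limma adjusted p = 0.0565 for each).

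Pooling treats both vectors as one, so their difference was fitted in a model of 3 groups with the block. Between Lv133KD and Lv143KD no gene passed, which is 0% of those tested; 209 genes had an unadjusted p under 0.05, and the smallest adjusted p was 0.91. Among the 66 called genes 1 had an unadjusted p under 0.05, the predicted gene with the largest rise, at a log2 fold change of 1.07 with Lv133KD and 1.45 with Lv143KD (95% interval of the difference -0.67 to -0.10, limma unadjusted p = 0.0143, limma adjusted p = 0.91). For 64 of the 66 the 95% interval of the difference lay within 0.5 on the log2 scale of 0, with a median half-width of 0.198. A difference between the vectors smaller than that could not be seen for most of them. The intervals were -0.28 to 0.28 for FOPNL, -0.20 to 0.24 for WIF1 and -0.17 to 0.16 for ATP6V1H. For GLA the interval was -0.07 to 0.48 and for AP1M1 -0.12 to 0.54. Of the 60 genes that rose, 40 had the larger estimate with Lv133KD, with a median difference of 0.0248.

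**Figure D3:**
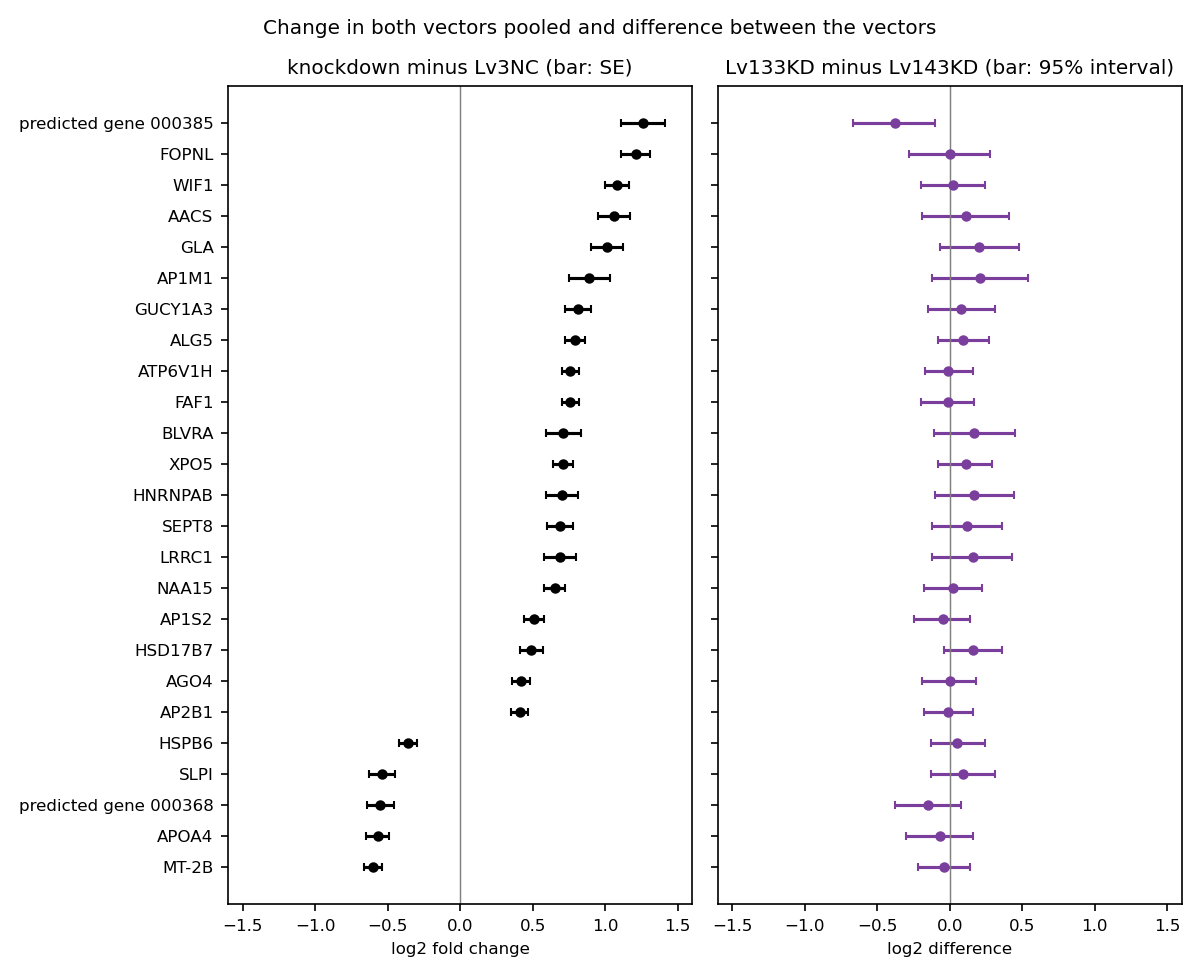
Left, the pooled log2 fold change of the 25 named genes with its SE; right, the log2 difference of Lv133KD minus Lv143KD with its 95% interval, from the fit of 3 groups. Labels that begin with "predicted gene" are genes without a symbol; the intervals on the right include 0 for every gene but the predicted gene at the top, where the interval ends at -0.10.

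Each vector on its own, against the same Lv3NC libraries in that fit, had 30 calls for Lv133KD, 0.258% of tested genes, and 20 for Lv143KD, 0.172%. Fitted without the libraries of the other vector, Lv133KD had 32 calls and Lv143KD 89, so the order of the counts depends on the fit. The 2 sets of estimates share their controls and are given side by side only. XPO5 had a log2 fold change of 0.76 with Lv133KD (adjusted p = 0.00837) and 0.65 with Lv143KD (0.0280). AP1M1 had 0.99 (0.0342) and 0.78 (0.120), SLPI had -0.50 (0.0957) and -0.59 (0.0711), and AP2B1 had 0.41 (0.0763) and 0.42 (0.0929). Named genes with a symbol that passed in the pool, and with neither vector in the 3-group fit, were SLPI, AP1S2, AP2B1, AGO4, APOA4 and HSPB6. Many other called genes did likewise, among them IFNAR1 (limma adjusted p = 0.079 with Lv133KD and 0.134 with Lv143KD) and TGFBR3 (0.0712 and 0.0594). Fitted alone, Lv143KD gave an adjusted p of 0.00743 for SLPI, 0.00749 for AP1S2, 0.0172 for AP2B1 and 0.0133 for APOA4 by limma. AGO4 (0.0518) and HSPB6 (0.0702) did not pass there. With Lv133KD fitted alone, the limma adjusted p was 0.0851 for SLPI and APOA4, 0.125 for AP1S2 and 0.171 for AP2B1. It was 0.237 for AGO4 and 0.348 for HSPB6, so none of these genes passed with that vector alone.

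The lists without a called member were described by counts and medians. Of 32 tested genes of the ATF4 amino acid response, which is induced when amino acids run short, 27 were lower and 5 higher, with a median log2 fold change of -0.31. Here 18 had an unadjusted p under 0.05, all lower, where 794 of all 11645 tested genes were lower at that p, and the smallest adjusted p was 0.104, that of PCK2, the mitochondrial enzyme that makes phosphoenolpyruvate (25.5 ± 10.7 against 35.5 ± 15 FPKM). The asparagine synthetase ASNS was at 274 ± 135 against 372 ± 176 FPKM (adjusted p = 0.164), a difference smaller than the SD over libraries of either group. By replicate number the list's median was -0.421, -0.427 and -0.0983, where that of all tested genes was 0.00889, -0.0519 and 0.0448.

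Of 74 ribosomal protein genes 71 were lower and 3 higher, with a median of only -0.0945. By number the median was 0.0588, -0.0501 and -0.277, so that it was above 0 for number 1, and 3 genes had an unadjusted p under 0.05. The p53 targets were 19 lower and 7 higher of 26 (median -0.108), and its lowest p was that of BBC3, which encodes the cell death protein PUMA (7.38 ± 3.45 against 10.5 ± 4.32 FPKM, adjusted p = 0.0763). Of these 26 genes, 7 had a limma unadjusted p under 0.05, all lower, where 794 of all 11645 tested genes were lower at that p. The 22 tested genes of MHC class I loading were 15 lower and 7 higher (median -0.0967).

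On the other side, 36 of 46 tested genes for DNA replication and entry into S phase were higher (median 0.131), led by the licensing factor CDT1 (8.78 ± 2.90 against 4.21 ± 3.10 FPKM, adjusted p = 0.188). By number the median was 0.185, -0.0589 and 0.312. It was 0.235 by the Lv133KD estimates and 0.00836 by those of Lv143KD, each against the same Lv3NC libraries. Of 38 mitotic genes 26 were lower (median -0.0674, by number -0.00952, 0.106 and -0.285). The Lv133KD estimates gave a median of -0.106 for the mitotic genes and those of Lv143KD -0.0246. Of 31 proteasome subunits 27 were higher (median 0.0788, with 0.112 for Lv133KD and 0.0214 for Lv143KD). Of 28 interferon-stimulated genes 21 were higher (median 0.0877), with none at an unadjusted p under 0.05. The respiratory chain (39 genes, median 0.0151) and the heat shock proteins (19 genes, median 0.0618) had no call either. Among 24 epithelial junction and keratin genes 14 were lower (median -0.0433), and EPCAM was at 287 ± 14.8 against 327 ± 34.1 FPKM (adjusted p = 0.25). In this list 7 genes had a limma unadjusted p under 0.05, all lower. Of all 11645 tested genes, 794 were lower at that p.

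**Figure D4:**
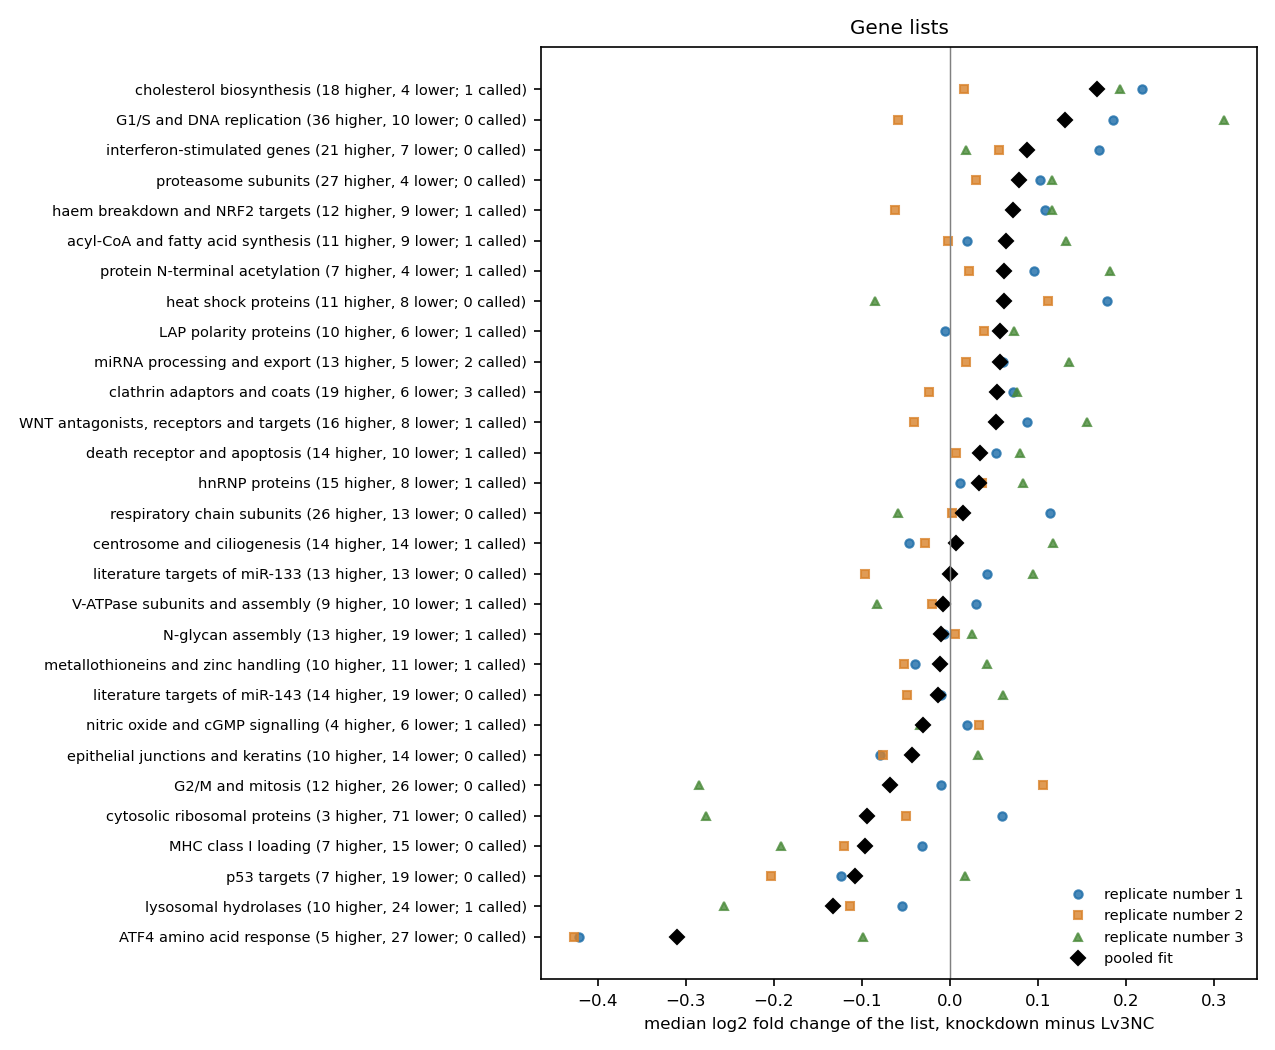
Median log2 fold change, knockdown minus Lv3NC, of the 29 gene lists with at least 10 tested members; diamonds are the pooled fit and the other symbols the medians within each replicate number. The ATF4 list lies lowest at -0.31 and the cholesterol list highest at 0.167, and the 3 replicate numbers differ widely in the G2/M, G1/S and ribosomal lists.

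Genes described in the literature as targets of the miRNAs did not move as lists. Of 26 tested miR-133 targets 13 were higher and 13 lower (median 0.000707), and of 33 miR-143 targets 14 were higher and 19 lower (median -0.0131). None was called. The actin-bundling gene FSCN1, listed for both, was at 36.5 ± 3.89 against 31.8 ± 4.97 FPKM (adjusted p = 0.44), and the hexokinase HK2, listed for miR-143, at 34.9 ± 7.14 against 30.5 ± 11.7 FPKM (adjusted p = 0.33). RUNX2, listed for miR-133, was at 5.09 ± 1.96 against 6.64 ± 2.12 FPKM (adjusted p = 0.269).

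The overexpression table gave the levels of the called genes in 6 libraries that no part of the comparison used. Its values were normalised apart from the knockdown table, so levels are set side by side without a test, and the genes were chosen for differing from these 3 Lv3NC libraries. Of the 60 called genes found there, 56 had risen and 4 fallen. The mean of the other control vector, Lv20NC, was nearer to the knockdown mean than to the Lv3NC mean for 50 of the 56 genes, 89.3%, against 50.6% of all 11482 genes tested in both tables. For OV143 it was 46 of 56, 82.1%, against 50.9%. All 6 libraries of that table lay above the highest Lv3NC library for 44 of the 56, 78.6%, against 15% of all genes.

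FOPNL was at 10.05, 10.14 and 10.63 FPKM in Lv20NC and at 10.18, 9.97 and 9.15 FPKM in OV143, in the range of the knockdown libraries (9.42 to 11.65 FPKM) and above Lv3NC (at most 4.55 FPKM). ATP6V1H was at 41.42, 41.95 and 40.13 FPKM in Lv20NC, between both groups of the knockdown table and nearer to the knockdown libraries. AACS was at 9.25 ± 0.591 FPKM and GLA at 15.1 ± 0.495 FPKM in Lv20NC (SD, n = 3), close to the knockdown means of 9.30 and 15.2 FPKM. The median log2 level of the 56 genes in Lv20NC was 0.629 above Lv3NC and 0.0469 above the knockdown libraries, where all genes had 0.0472 and 0.0387. Of the genes that fell, SLPI was at 73.20, 81.60 and 59.64 FPKM in Lv20NC, above both groups of the knockdown table. A property of the Lv3NC libraries and an action shared by both knockdown vectors cannot be told apart in this design, which has 1 knockdown control.

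**Figure D5:**
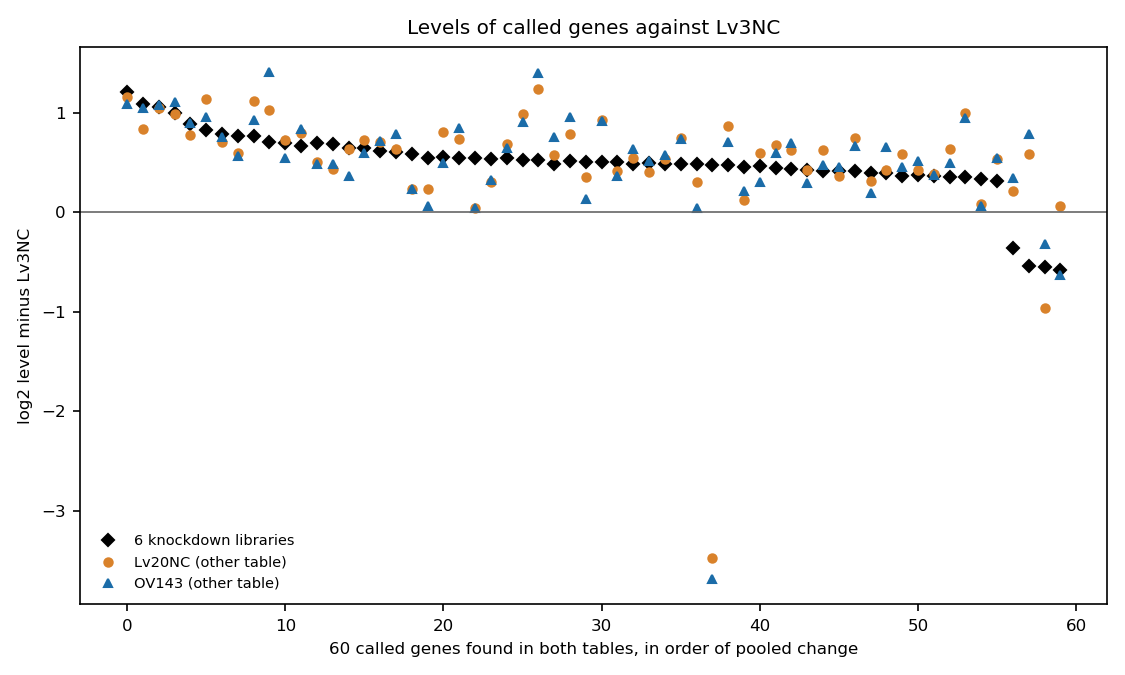
Log2 level minus that of Lv3NC for the 60 called genes found in both tables, ordered by pooled change; diamonds are the mean of the 6 knockdown libraries, circles Lv20NC and triangles OV143, both from the separately normalised table. For 50 of the 56 genes that rose, Lv20NC lies nearer to the knockdown mean than to 0; 1 gene without a proper symbol lies more than 3 below 0.

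OV143 against Lv20NC, tested within that table with its own replicate block, had 223 calls among 11506 genes, 1.94%. Of the 60 called genes found there, 1 was among them. MT-2B was at 444.26, 628.28 and 499.05 FPKM in OV143 and at 857.54, 988.04 and 703.35 FPKM in Lv20NC, without overlap (log2 fold change -0.70, SE 0.12, limma adjusted p = 0.0209). It was thus lower with each of the 3 miRNA vectors than with the control of its own table. XPO5 (log2 fold change -0.18, adjusted p = 0.362) and FOPNL (-0.07, 0.75) did not pass there.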

How the data were processed

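The authors deposited gene-level FPKM to 2 decimals, per the file headers, as a table of 9 knockdown libraries and another of 6 overexpression libraries. The build Sscrofa11.1 is named in the submitters' processing notes; the aligner, counting tool, annotation and strand use were not given in the sources used here. Symbols and 1-based coordinates came from a RefSeq gene table of that build, which matched 18618 of 19000 genes in the knockdown table. Low values did not give whole reads (55.9% of 34 values lay within 10% of a whole multiple), so depth was not recovered and precision rests on the spread between libraries. No libraries were identical.

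Genes that reached 1 FPKM in 3 or more of the 9 libraries were analysed as log2(FPKM + 1) with limma 3.58.1 in R 4.3.3 (empirical Bayes with trend, two-sided, Benjamini-Hochberg over all 11645 genes, called at an adjusted p under 0.05). The 6 knockdown libraries were one group against 3 Lv3NC libraries, with the replicate number as a fixed block, which leaves 5 residual degrees of freedom; the median SE was 0.0815. The labels give the numbers without saying what they mark. Deviations from group means correlated at 0.27 to 0.852 in the 9 same-number pairs and at -0.87 to 0.379 in the 18 others, so the numbers were taken to pair the libraries. The difference of the vectors came from a fit of 3 groups with the block, and OV143 was fitted against Lv20NC in the same way within its table. The analysis was tested on data simulated from the same model with independent noise, which could not show dependence between libraries. Figures were drawn in Python 3.11.15.

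The members and the 36 gene lists were chosen with earlier results of these data known. Named are called genes whose control lay outside the knockdown mean in the same direction in each number, up to 15 rises and 15 falls by size, and up to 4 called members of a list, 25 genes in all; genes without a symbol are named by role only, and some results are not reported here. No set test was made. Alternatives were: no block, 3 groups, pseudocounts of 0.1 and 5 FPKM, no filter or 5 FPKM, median scaling, quantile normalization, robust variance, library weights, each vector alone, and each library or replicate number left out.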

Additional observations from a re-analysis of the deposited data

Results flagged for a closer look

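In 2 named genes 1 of the 6 knockdown libraries stood far from the rest, by a gap that was a larger share of the group's range than the 95% limit of Dixon's test for 6 values. It was Lv143KD replicate 3 both times, and both times the lowest. AP1M1 was at 18.78 FPKM there (gap 0.924 of the range) and LRRC1 at 4.7 FPKM (0.706). Chance alone marks about 1 in 20 groups. Without that library 24 of the 25 named genes still passed.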

How the results depend on the processing

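The count of 66 calls (60 rises, 6 falls) moved by over 1.5 times in several fits. Without the replicate block 10 genes were called, 10 higher and 0 lower (limma; 484 genes at an unadjusted p under 0.05). Without a filter on low values there were 33 (31 and 2), with library weights 126 (101 and 25) and with Lv133KD alone 32 (25 and 7). With Lv143KD alone the total was within that limit at 89 (71 and 18), but the falls were not. Leaving out a library or a whole replicate number gave 1 to 337 calls, 0 to 168 higher and 0 to 169 lower; the 337, 168 and 169 are 1 fit, without the libraries numbered 3, and the 1 call is a fall without those numbered 1. Other pseudocounts, a filter at 5 FPKM, median scaling, quantile normalization, a robust variance and the fit of 3 groups gave 53 to 75. The cause was not tested. Over 24 settings the 25 named genes gave 598 values: 417 still passed, 181 did not and 0 turned direction. Of 696 list medians 17 moved by more than the spread between replicates; the G2/M median ran from -0.152 to 0.0616 and that of ATF4 from -0.434 to -0.229. Scaling moved the median of all genes by under 0.01. The limits are 3 control libraries, unknown depth and 1 knockdown control vector.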
